A study of Mus musculus with 14 samples.

Results

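The galectin family was examined in microglia, the macrophages that reside in neural tissue, sorted from mouse retina in a glaucoma model. The genes were chosen by symbol: Lgals3 as the main gene, its relatives Lgals1, Lgals8 and Lgals9, and the galectin-3-binding protein gene Lgals3bp, which makes 5 of the 35735 genes in the series table. Each of 14 libraries held the cells of 1 retina from a mouse aged 12 weeks. The groups were APOE E3/E3 with a sham injection (APOE3 sham, n = 4), APOE E3/E3 with a microbead injection (APOE3 microbead, n = 3), APOE E4/E4 with a sham injection (APOE4 sham, n = 4) and APOE E4/E4 with a microbead injection (APOE4 microbead, n = 3). Microbeads obstruct the outflow of fluid and raise eye pressure. Cells were gated as Fcrls+, CD11b+ and Ly6c-, and 100 to 600 were collected per retina. The labels do not say which retinas share an animal, so p-values measure the spread between these samples.

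Galectins are small lectins that bind galactose-containing glycans on glycoproteins. They are made in the cytosol, leave the cell without a signal peptide, and act outside it by linking surface receptors and inside it by binding glycans exposed on damaged endosomes and lysosomes. In microglia and other macrophages, Lgals3 (galectin-3) is a familiar gene of the activated, phagocytic state, seen in neurodegeneration and in injured retina.

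Libraries held 450981 to 727264 reads on genes, of which 38.6% to 65.3% fell on 12 satellite-repeat genes. Levels between libraries are therefore given as CPM (reads scaled to a common library size, with TMM factors), and TPM (which also divides by transcript length) is used only to compare genes within a library. All 10 microglial markers had reads in every group, with summed levels of 6512 to 11330 CPM in APOE3 microbead against 13840 to 18710 in its sham group, and of 13740 to 16140 in APOE4 microbead against 13740 to 16650 in its sham group. APOE3 microbead 1 and 2 had the highest sums of the monocyte markers described below. The called changes of named genes that rest on these 2 libraries are given with and without both. APOE3 microbead 3 came next, at 278 CPM, above every library of the other groups (at most 203). The fits without both therefore keep a library with a raised sum and are not free of these markers. Most of that sum was Fn1, the fibronectin gene, at 237 CPM, while the monocyte marker Ccr2, at 16.1 CPM, was within the range of the other groups. The fit without both leaves 1 library in that group, which is assumed to vary like the other groups, so a call can be lost there through the smaller sample alone, and the fold changes are printed with their SE.

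Lgals3, the one chimera-type galectin, with a single sugar-binding domain on a long flexible tail, was high in the APOE3 microbead libraries and low everywhere else. It stood at 235, 183 and 143 CPM in the 3 APOE3 microbead libraries. In APOE3 sham it stood at 6.87, 3.51, 12.2 and 20.4 CPM, in APOE4 sham at 43.1, 0, 3.56 and 13.2, and in APOE4 microbead at 6.04, 6.65 and 24.2. Each APOE3 microbead library lay above all 11 other libraries, the closest of which was APOE4 sham 1, while the 3 other groups overlapped one another. A pattern with every APOE3 microbead library above all others was found for 2.76% of the 7605 genes tested. These values rest on 80 to 164 reads per APOE3 microbead library and on at most 24 reads in any other, and 1 read was worth 1.11 to 2.26 CPM.

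By group mean the order of Lgals3 was APOE3 microbead (187 ± 46.5 CPM, SD, n = 3), APOE4 sham (14.96 ± 19.6, n = 4), APOE4 microbead (12.3 ± 10.3, n = 3) and APOE3 sham (10.75 ± 7.37, n = 4), and the last 3 did not differ beyond their spread. In APOE3 the microbead libraries were 16.1-fold higher than sham (log2 fold change 4.01 ± 0.73 SE, edgeR adjusted p = 0.00694). In APOE4 the fold change was -0.24 ± 0.97 on the log2 scale (edgeR adjusted p = 0.996), with a 95% interval from -2.38 to 1.90, so its direction is not settled. Fewer cells that carry a transcript and less RNA per cell cannot be told apart in such bulk libraries, here and for every gene below. Without both APOE3 microbead 1 and 2 the APOE3 value was 3.63 ± 1.05 (edgeR adjusted p = 0.29). The call was kept in each of the 14 fits that left out a single library, with fold changes of 3.73 to 4.62.

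**Figure D1:**
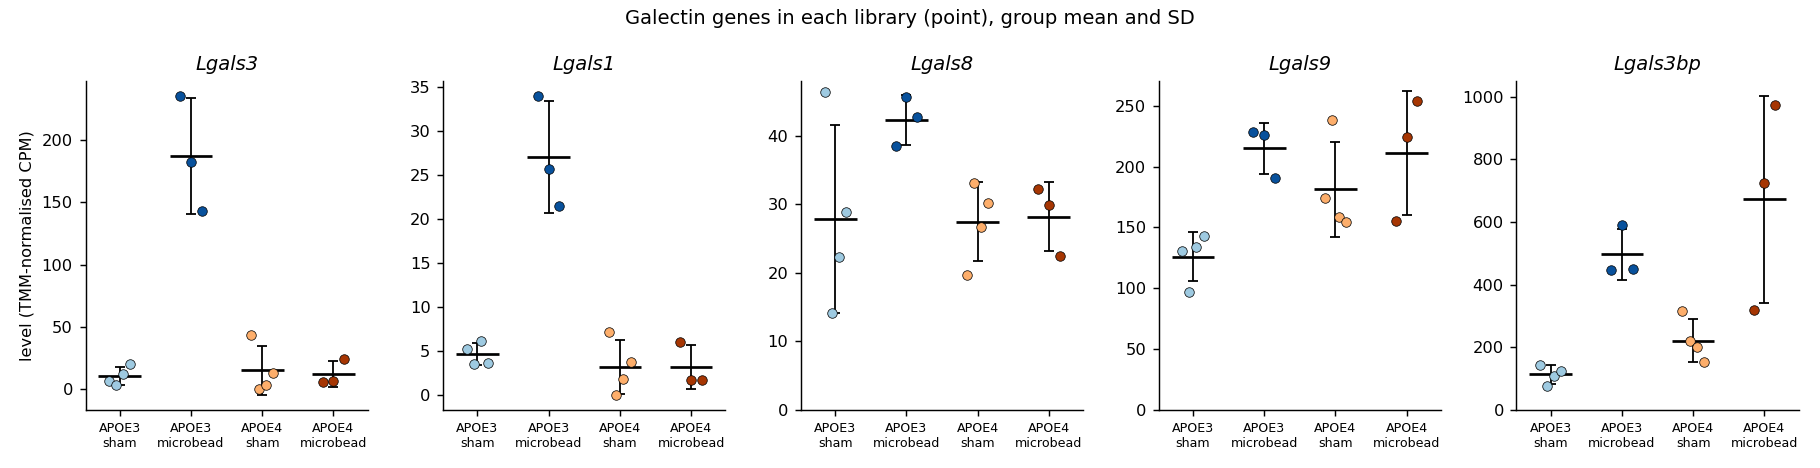
Level of each of the 5 genes in TMM-normalised CPM (vertical axis, linear, a separate scale per gene) in the 4 groups (horizontal axis), with 1 point per library, a bar for the group mean and whiskers for the SD. Lgals3 and Lgals1 are high in the 3 APOE3 microbead libraries, at 143 to 235 and 21.4 to 33.9 CPM, and Lgals3bp is highest in APOE4 microbead 3, at 975 CPM.

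Lgals1 (galectin-1), a prototype galectin that pairs into dimers and is known for dampening T cell and glial inflammation, was likewise highest in APOE3 microbead, at a level near the limit of detection. It had 15, 23 and 12 reads in the APOE3 microbead libraries, or 33.9, 25.6 and 21.4 CPM. The other 11 libraries had 0 to 4 reads each, at 0 to 7.18 CPM. Again no APOE3 microbead library overlapped any other library, as held for 2.76% of all genes tested. In APOE3 the change was 2.52 ± 0.72 (edgeR adjusted p = 0.036), from 4.59 ± 1.26 to 27.0 ± 6.39 CPM. In APOE4 it was -0.05 ± 1.00 (edgeR adjusted p = 0.998, 95% interval -2.09 to 1.99). Lgals1 passed the filter on low counts only through the APOE3 microbead group, where all 3 libraries reached the minimum and none of the other 11 did, so a difference was built into its being tested. The APOE3 call was lost when APOE3 sham 1, 2 or 4 or any 1 of the APOE3 microbead libraries was left out (edgeR adjusted p 0.0543 to 0.166, fold changes 2.34 to 2.65), and without both APOE3 microbead 1 and 2 the value was 2.19 ± 1.28 (edgeR adjusted p = 0.706).

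Summed monocyte markers, and in part border macrophage markers, were higher in the same libraries as Lgals3 and Lgals1, and markers of other cells were not. Summed lymphocyte markers were lower, at 115 to 145 CPM in APOE3 microbead and 288 to 319 in APOE3 sham. Sums of rod photoreceptor, Mueller glia and astrocyte, and endothelial markers overlapped between these groups. The summed level of 10 monocyte markers, all of them with a read in every group, was 1464, 685 and 278 CPM in APOE3 microbead 1, 2 and 3. It was 63.5 to 82.6 in APOE3 sham, 54.7 to 64.6 in APOE4 sham, and 54.3, 203 and 74.4 in APOE4 microbead 1, 2 and 3. Among the APOE3 microbead libraries Lgals3, at 235, 183 and 143 CPM, and the monocyte sum had the same order. Much of that sum was a single gene, Fn1 (fibronectin), at 1319, 335 and 237 CPM in APOE3 microbead 1, 2 and 3. Fn1 thus had this order too, and Ccr2 (below) did not. In APOE3 microbead 3 the raised sum was mostly Fn1, at 237 of 278 CPM, so it does not show that monocyte markers in general were higher there. Fn1 was the one monocyte marker tested, and rose in APOE3 from 22.1 ± 10.5 to 630.5 ± 598.5 CPM (log2 fold change 4.77 ± 0.88, edgeR adjusted p = 0.00976). Its value was 3.37 ± 0.92 without both APOE3 microbead 1 and 2 (edgeR adjusted p = 0.266). Ccr2, a chemokine receptor of incoming monocytes, stood at 83.7, 116 and 16.1 CPM in the APOE3 microbead libraries and at 0 to 18.9 in the others. Ly6c2, which encodes the antigen gated against, was at 0 to 6.63 CPM in all 14.

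In APOE4 microbead 2, where the monocyte sum was 203 CPM and Fn1 alone 140, Lgals3 stood at 6.65 CPM. In APOE3 microbead 3, with a monocyte sum of 278, Fn1 alone at 237 and Ccr2 within the range of the other libraries, Lgals3 stood at 143. The 6 border macrophage markers summed to 74.9 to 160 CPM in APOE3 microbead, 47.4 to 84.0 in APOE3 sham and 15.6 to 68.4 in the APOE4 groups. Of these, Mrc1 and Ms4a7 were tested. Ms4a7 stood at 56.6, 95.8 and 64.2 CPM in APOE3 microbead, above all 11 other libraries (9.44 to 22.1 CPM), and so moved with Lgals3 and Lgals1. That separation held for 2.76% of all genes tested. Ms4a7 was called higher in APOE3 microbead than in sham (2.25 ± 0.34, edgeR adjusted p = 0.000127) and lower in APOE4 than in APOE3 microbead (-2.06 ± 0.38, edgeR adjusted p = 0.00556). These values were 2.06 ± 0.51 and -1.86 ± 0.53 without both APOE3 microbead 1 and 2 (edgeR adjusted p 0.0604 and 0.549). Mrc1 was not called in APOE3 (0.84 ± 0.58, edgeR adjusted p = 0.582). Between the microbead groups DESeq2 called 0 of these 2 genes, so not Ms4a7, and limma-voom called 1, as lower in APOE4. The 5 neutrophil markers reached at most 6.10 CPM in any library, with Ly6g at 0 in APOE3 sham and in both microbead groups. The part of these other cells in the Lgals3 and Lgals1 results was not tested.

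**Figure D2:**
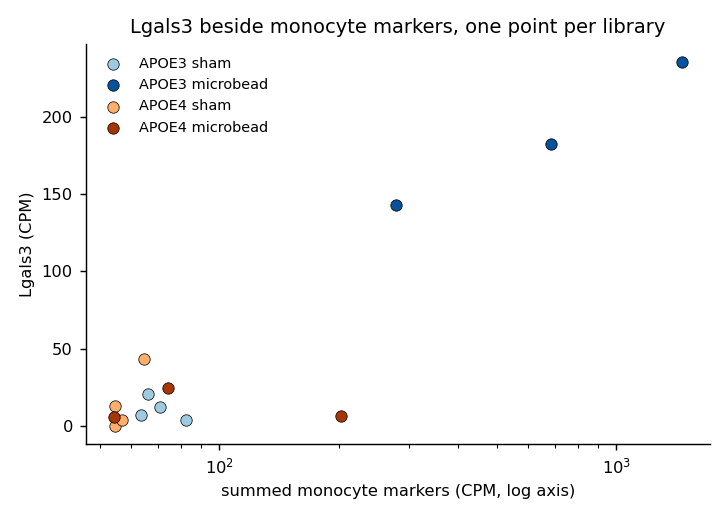
Lgals3 in CPM (vertical axis, linear) against the summed level of 10 monocyte markers in CPM (horizontal axis, log scale), with 1 point per library coloured by group. The 3 APOE3 microbead libraries lie at the upper right, between 278 and 1464 CPM of monocyte markers, and APOE4 microbead 2 lies at 203 CPM of markers with 6.65 CPM of Lgals3. The sum includes Fn1, at 237 to 1319 CPM in the APOE3 microbead libraries.

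Lgals3bp encodes a large secreted glycoprotein that binds galectin-3 and is known as an interferon-induced gene. It was higher after microbeads in both genotypes. In APOE3 sham it stood at 144, 75.6, 108 and 124 CPM and in APOE3 microbead at 448, 591 and 451. In APOE4 sham it stood at 314, 219, 201 and 151 CPM and in APOE4 microbead at 320, 725 and 975. The microbead libraries lay above every sham library of their own genotype, though APOE4 microbead 1 exceeded APOE4 sham 1 by little. Such a separation held for 7.63% of all genes tested in APOE3 and for 4.97% in APOE4. The change was 2.14 ± 0.32 in APOE3 (edgeR adjusted p = 0.000474) and 1.61 ± 0.31 in APOE4 (edgeR adjusted p = 0.0454).

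The APOE3 rise of Lgals3bp was past the threshold in each of the 14 fits without a single library (1.98 to 2.26) and stood at 1.99 ± 0.49 without both APOE3 microbead 1 and 2 (edgeR adjusted p = 0.176). The APOE4 call was close to the threshold: it was lost without APOE3 sham 3 or 4, APOE4 sham 2, 3 or 4, APOE4 microbead 2 or 3, or any 1 of the APOE3 microbead libraries (edgeR adjusted p 0.0548 to 0.168), with a fold change of 1.24 to 1.61 in those fits.

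Lgals9 (galectin-9), a tandem-repeat galectin with 2 different sugar-binding domains and a ligand of the receptor TIM-3, was also higher in APOE3 after microbeads, by a smaller factor. It stood at 130.5, 96.6, 134 and 143 CPM in APOE3 sham and at 228.5, 226 and 191 in APOE3 microbead, with no overlap, as held for 7.63% of all genes tested. In APOE4 sham it stood at 174, 238.5, 158 and 155 CPM and in APOE4 microbead at 155, 224 and 254, and these groups overlapped. The change was 0.77 ± 0.22 in APOE3 (1.70-fold, edgeR adjusted p = 0.0326) and 0.22 ± 0.22 in APOE4 (edgeR adjusted p = 0.943, 95% interval -0.22 to 0.66). The APOE3 call was lost without APOE3 sham 1, 2 or 3 or APOE3 microbead 1 or 2 (edgeR adjusted p 0.0512 to 0.129, fold changes 0.65 to 0.79), and the value was 0.59 ± 0.30 without both APOE3 microbead 1 and 2 (edgeR adjusted p = 0.629).

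Lgals8 (galectin-8), the tandem-repeat galectin that marks ruptured endosomes and lysosomes for autophagy, gave no call in any comparison. It stood at 46.4, 14.1, 22.4 and 28.8 CPM in APOE3 sham and at 38.5, 45.7 and 42.8 in APOE3 microbead, where APOE3 sham 1 lay above all 3 microbead libraries. The APOE3 change was 0.60 ± 0.34 (edgeR adjusted p = 0.452, 95% interval -0.10 to 1.29) and the APOE4 change 0.03 ± 0.36 (edgeR adjusted p = 0.998, 95% interval -0.71 to 0.78). The APOE3 value was 0.60 ± 0.51 without both APOE3 microbead 1 and 2 (edgeR adjusted p = 0.842). In the APOE4 groups it ranged from 19.7 to 33.1 CPM. Lgals8 overlaps Heatr1, on the opposite strand, by 875 bases, and reads from the shared bases could count for either gene.

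All 5 genes passed the filter on low counts, Lgals1 through APOE3 microbead alone. Of them 4 were called higher in APOE3 and 1, Lgals3bp, in APOE4, against 3.54% and 0.171% of all genes tested called higher. Counting both directions, 5.15% of genes were called in APOE3 and 0.197% in APOE4. The median log2 fold change of the 5 genes was 2.14 in APOE3 and 0.03 in APOE4, where the median over all genes tested was -0.02 and -0.004. Without both APOE3 microbead 1 and 2, none of the 5 was called by edgeR in either genotype. In APOE4, where those libraries enter through the shared spread and the filter, Lgals3bp was then at 1.62 ± 0.36 (edgeR adjusted p = 0.144) and Lgals3 at -0.23 ± 1.06 (edgeR adjusted p = 0.994).

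**Figure D3:**
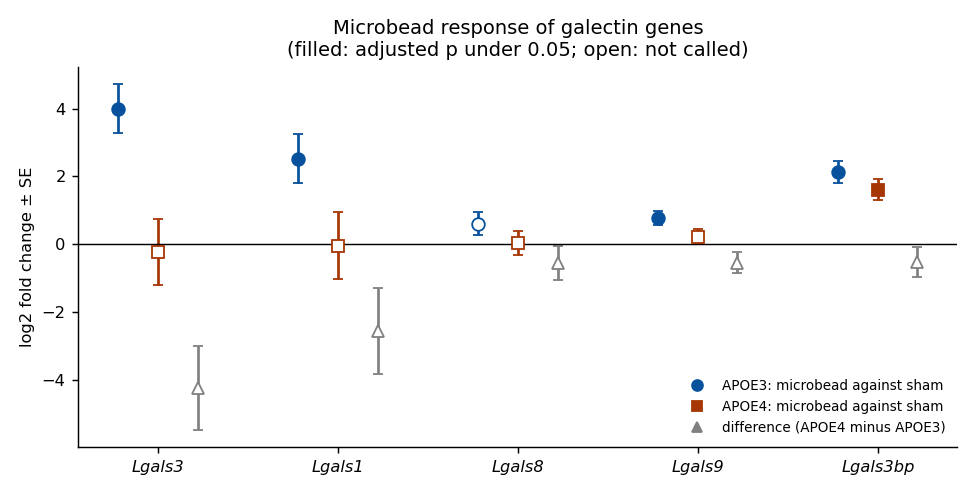
Log2 fold change of each gene with its SE (vertical axis) for microbead against sham in APOE3 (circles) and APOE4 (squares) and for the difference between these effects (triangles). Filled symbols are called at an edgeR adjusted p under 0.05. Lgals3 lies at 4.01 in APOE3 and -0.24 in APOE4, and its difference of -4.24 is not called.

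The difference between the genotypes in their response was tested as an interaction, the APOE4 effect minus the APOE3 effect. EdgeR called 0 of the 5 genes (0.092% of all genes tested were called), 1 had an unadjusted p under 0.05, and DESeq2 and limma-voom called 0 as well. The largest difference was that of Lgals3, at -4.24 ± 1.24 on the log2 scale (edgeR adjusted p = 0.293, 95% interval -6.96 to -1.53). Lgals1 followed at -2.57 ± 1.28 (edgeR adjusted p = 0.621). The values of Lgals8, Lgals9 and Lgals3bp were -0.56 ± 0.50, -0.55 ± 0.31 and -0.53 ± 0.44 (edgeR adjusted p 0.689 to 0.865). All 5 estimates were below 0, and none passed after adjustment over all genes. Lgals3 was at -3.86 ± 1.52 and Lgals1 at -2.22 ± 1.83 without both APOE3 microbead 1 and 2 (edgeR adjusted p 0.796 and 0.958).

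Within the microbead groups alone, APOE4 against APOE3, edgeR again called 0 of the 5 genes, where 0.579% of all genes were called, while 2 had an unadjusted p under 0.05. DESeq2 and limma-voom each called 1, Lgals3. Lgals3 differed by -3.88 ± 0.81 on the log2 scale (edgeR adjusted p = 0.077). It passed in 6 of 27 alternatives, with DESeq2 (-3.91, adjusted p = 0.0141) and limma-voom (-4.02, adjusted p = 0.00208) among them, and did not pass in the other 21. Over all 27 the difference ranged from -4.83 to -2.85 and the adjusted p from 0.000437 to 0.75. Of the fits without 1 library, those without APOE4 sham 1 and without APOE4 sham 2, which entered only through the shared spread, gave an edgeR adjusted p of 0.00319 and 0.0134. Without both APOE3 microbead 1 and 2 it was at -3.49 ± 1.14 (edgeR adjusted p = 0.75). Lgals1 stood at -3.06 ± 0.85 (edgeR adjusted p = 0.116), and at -2.72 ± 1.4 without both (edgeR adjusted p = 0.961). For both genes every APOE3 microbead library lay above every APOE4 microbead library, which held for 7.28% of all genes tested. Lgals1 passed the filter on low counts only through APOE3 microbead, so for it this separation was built into its being tested. Lgals9 (-0.02 ± 0.23) and Lgals3bp (0.44 ± 0.33) were not called (edgeR adjusted p 0.988 and 0.779), with 95% intervals of -0.50 to 0.45 and -0.25 to 1.13. This comparison shares the APOE3 microbead libraries with the one against sham.

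Between the sham groups, Lgals3bp and Lgals9 already stood higher in APOE4 retinas in the libraries themselves. Lgals3bp was at 221 ± 68.3 CPM in APOE4 sham and 113 ± 29.0 in APOE3 sham, and Lgals9 at 181 ± 39.0 and 126 ± 20.3, with every APOE4 sham library above every APOE3 sham library for both genes. That separation was found for 2.16% of all genes tested. Neither passed: the log2 difference was 0.97 ± 0.30 for Lgals3bp (edgeR adjusted p = 0.962) and 0.52 ± 0.20 for Lgals9 (edgeR adjusted p = 0.962). These 2 were the genes of the 5 with an unadjusted p under 0.05. EdgeR, DESeq2 and limma-voom called 0 of the 5 here, and edgeR called 0.0131% of all genes. Lgals3, at 0.37 ± 0.90, and Lgals1, at -0.50 ± 0.87, overlapped between the sham groups.

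Because TPM is scaled for length, it shows which of the 5 genes led in a library. Lgals9 led in 7 of the 8 sham libraries, Lgals3bp led in APOE4 sham 1, in all 3 APOE4 microbead libraries and in APOE3 microbead 2 and 3, and Lgals3 led in APOE3 microbead 1. Lgals3 had a higher TPM than Lgals9 in all 3 APOE3 microbead libraries and in none of the other 11. As a share of the summed TPM of the 5 genes, Lgals3 made up 31.3% ± 3.72 in APOE3 microbead (SD, n = 3). It made up 6.65% ± 3.98 in APOE3 sham (n = 4), 7.91% ± 10.8 in APOE4 sham (n = 4) and 2.66% ± 1.495 in APOE4 microbead (n = 3). The share of Lgals9 was 47.7% ± 2.23 in APOE3 sham and 22.5% ± 0.520 in APOE3 microbead. Lgals3bp made up 59.8% ± 8.82 in APOE4 microbead against 38.1% ± 0.848 in APOE4 sham. Neighbours low in the order, Lgals8, Lgals1 and Lgals3, changed places from one sham library to the next.

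**Figure D4:**
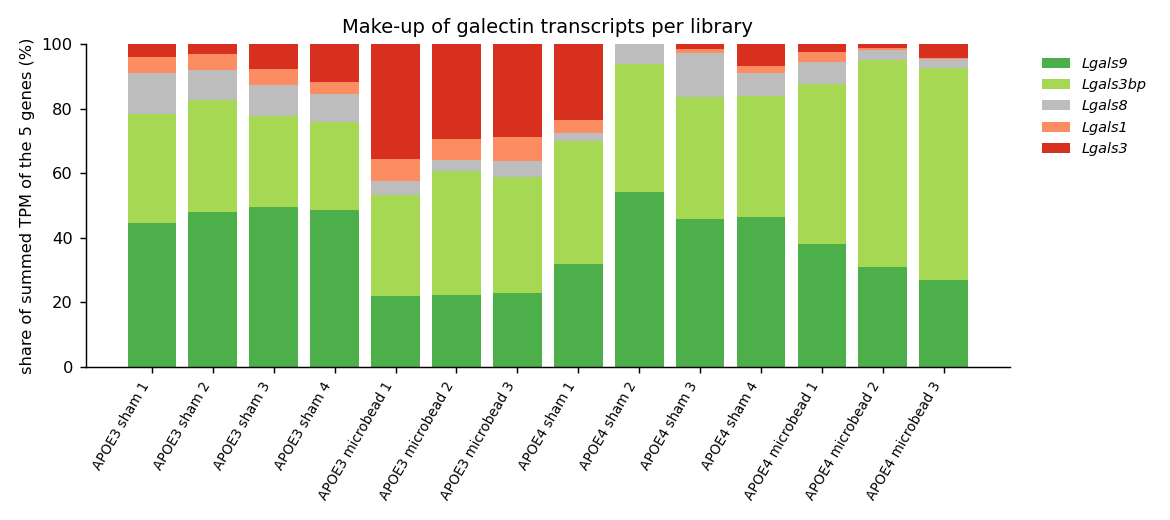
Share of the summed TPM of the 5 genes (vertical axis, percent) taken by each gene in each of the 14 libraries (horizontal axis), as stacked bars that sum to 100. The Lgals3 segment covers 28.8% to 35.5% in the 3 APOE3 microbead libraries and 0% to 23.6% in the others, and the Lgals3bp segment is widest in APOE4 microbead 3, at 65.6%.

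Reads of Lgals3 (ENSMUSG00000050335, GRCm38 chromosome 14, 47367751 to 47386160) were assigned mostly to 1 coding transcript. Lgals3-203, of 6 exons, took 77.5% of them, Lgals3-204 took 15.9% and Lgals3-201 took 5.99%, whose 25.8 estimated reads all came from the APOE3 microbead libraries. Lgals9 (ENSMUSG00000001123, chromosome 11, 78962974 to 78984946) was carried by Lgals9-202 (97.8%) and Lgals3bp (ENSMUSG00000033880, chromosome 11, 118392751 to 118402092) by Lgals3bp-201 (98.5%). For Lgals8 (ENSMUSG00000057554, chromosome 13, 12439415 to 12464944) the transcript with the most reads was Lgals8-204, annotated as a retained intron, with 46.8%. The reads of Lgals1 (ENSMUSG00000068220, chromosome 15, 78926725 to 78930465) were split between the coding Lgals1-201 (49.4%) and Lgals1-202 (50.6%), annotated for nonsense-mediated decay. Such splits are Salmon estimates over transcripts that share most of their exons, and on few reads. Lgals1 also has near-identical pseudogenes that can share its reads.

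Lgals3 with Lgals1, and Lgals9 with Lgals3bp, were alike in their pattern over libraries, and Lgals8 went with neither pair. Lgals3 and Lgals1 had a Pearson r of 0.906 (Spearman rho 0.745) between their log2 CPM over 14 libraries, and Lgals9 and Lgals3bp had an r of 0.87 (rho 0.846). The other pairs had an r of 0.154 to 0.486. Without the APOE3 microbead group, over 11 libraries, r was 0.849 for Lgals9 and Lgals3bp and 0.57 for Lgals3 and Lgals1. Deviations from the group means, over 14 libraries, gave 0.731 and 0.616. Outside APOE3 microbead Lgals1 had 0 to 4 reads per library, so its likeness to Lgals3 there rests on few reads. The points share groups and scaling, so these values are descriptions.

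**Figure D5:**
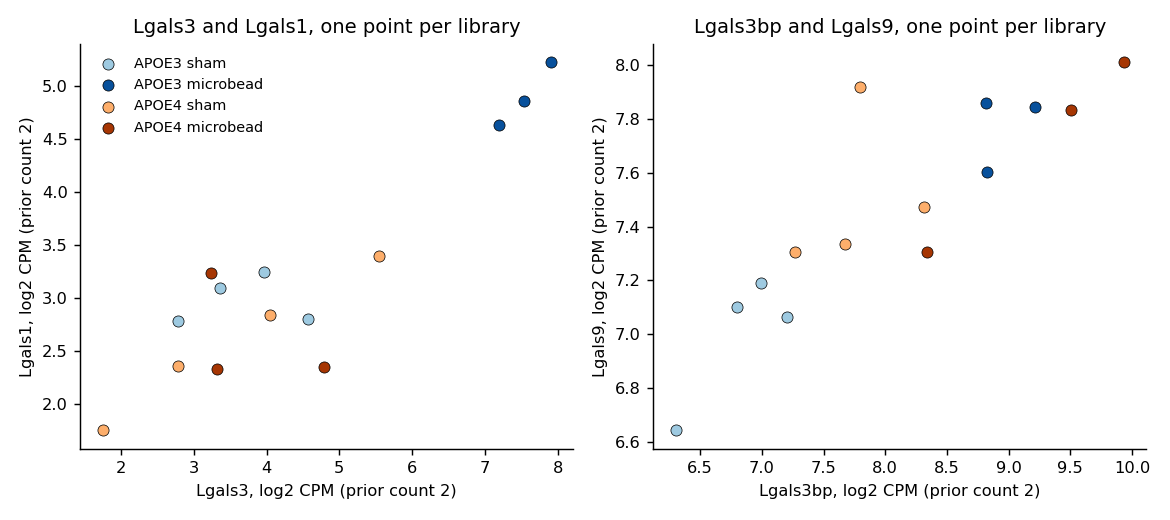
Log2 CPM (prior count 2) of Lgals1 against Lgals3 (left) and of Lgals9 against Lgals3bp (right), with 1 point per library coloured by group. On the left the 3 APOE3 microbead libraries lie apart from the other 11, and on the right the libraries spread along the diagonal from APOE3 sham at the lower left to the microbead groups at the upper right.

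Among 7196 named genes the 8 most like Lgals3, by Pearson r over the 14 libraries, were Lgals1 (0.906), Prdx1 (0.902), Aldoa (0.894), Vim (0.883), Fxyd5 (0.88), Rpl10a (0.879), Pgam1 (0.874) and Lilrb4a (0.872). Prdx1 is a peroxide-removing enzyme, Aldoa and Pgam1 are glycolytic enzymes, Vim is the intermediate filament vimentin and Lilrb4a is an inhibitory receptor of myeloid cells. Over the 12 libraries other than APOE3 microbead 1 and 2, r was 0.727 to 0.823 for these genes, and 4 of them were still among the 8 most like. Vim, the most contrasted of them, stood at 117 ± 58.1 CPM in APOE3 microbead, against 2.59 ± 2.06 in APOE3 sham, 6.37 ± 7.28 in APOE4 sham and 14.4 ± 10.5 in APOE4 microbead. Aldoa stood at 356.5 ± 34.6 CPM against 167 ± 15.8, 181.5 ± 42.1 and 182 ± 45.4 in the same order. The genes most like Lgals3bp, looked up after its values had been seen, were Stat2 (0.926), Oas1a (0.913), Irf7 (0.911), Zbp1 (0.909), H2-D1 (0.906), B2m (0.902), Shisa5 (0.901) and H2-K1 (0.898). Stat2 and Irf7 are transcription factors of the interferon response, Oas1a an antiviral enzyme, and H2-D1, H2-K1 and B2m the chains of class I antigen presentation. Irf7 stood at 61.1 ± 20.7 CPM in APOE3 microbead against 8.87 ± 7.29 in its sham group, and at 107 ± 67.9 in APOE4 microbead against 21.4 ± 7.28 in its sham group. The genes most like Lgals9 were B2m (0.914), Oas1a (0.888), Erp29 (0.885), Sp100 (0.879), Helz2 (0.875), Ifi207 (0.875), Lgals3bp (0.87) and Rpsa (0.857). Erp29 is a protein of the endoplasmic reticulum and Rpsa a ribosomal protein. Over the same 12 libraries r was 0.898 to 0.922 for the genes named with Lgals3bp and 0.851 to 0.929 for those named with Lgals9.

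The start regions of Lgals9 and Lgals3bp are shown because these 2 genes had like patterns over libraries, with that of Lgals3 for contrast. Sequences are from RefSeq on GRCm38.p6 and run 5′ to 3′ on the strand of the gene. Windows cover 250 bases before to 50 after each gene's start, and a window was found for 4 of the 5 genes, Lgals1 being the other. The start is the one RefSeq gives, which for all 4 lies inside the longer GENCODE interval given above. It is 47373860 for Lgals3, 12461738 for Lgals8, 78984924 for Lgals9 and 118401959 for Lgals3bp. The motifs searched, on both strands, were GAAA, any 2 bases and GAAA again, the core of the interferon-stimulated response element, and the shorter AANNGAAA bound by interferon regulatory factors, whose matches can overlap. Matches are in capitals. The upstream stretch of Lgals9 (chr11:78984947-78985174, minus strand) holds 1 match to the longer motif on the reverse strand, whose first bases as printed also match the shorter motif, and 1 separate match to the shorter motif. A further match to the longer motif lies in the transcribed part of the window.
Lgals9: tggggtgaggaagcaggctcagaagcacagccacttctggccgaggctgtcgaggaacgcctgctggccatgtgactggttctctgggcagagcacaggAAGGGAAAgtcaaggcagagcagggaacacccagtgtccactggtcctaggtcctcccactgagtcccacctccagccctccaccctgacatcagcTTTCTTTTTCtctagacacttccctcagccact
For Lgals3bp the 1 match, to the shorter motif, lies in 30 bases at chr11:118401955-118401984 on the minus strand, which overlap an annotated exon.
Lgals3bp: tgttttctgaaAATCGAAActaggtgaggt
In the stretch before the RefSeq start of Lgals3 (chr14:47373610-47373812, plus strand), which lies within the GENCODE interval of the gene, as in the windows of Lgals3 and Lgals8 as a whole, neither motif was found.
Lgals3: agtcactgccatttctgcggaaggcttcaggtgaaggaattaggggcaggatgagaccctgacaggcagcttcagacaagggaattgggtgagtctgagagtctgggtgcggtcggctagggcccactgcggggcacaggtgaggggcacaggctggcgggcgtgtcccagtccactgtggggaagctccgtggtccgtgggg
The longer motif occurs in 3.44% and the shorter in 23.9% of 32851 such windows of 300 bases. A match describes the letters only, and the absence of one says nothing of a factor's binding.

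Other galectin genes were close to silent. Lgals4 had 42 reads over 12 libraries and the galectin-like gene Lgalsl 18 over 8, while Lgals12 had 4 reads, Lgals7 had 3, and Lgals2 and Grifin, the lens galectin-like gene, had 1 each. Their highest TPM in any library was 5.69, for Lgals4, and none passed the filter on low counts.

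Of 15 glycoproteins known to bind galectins on the surface or in the lysosome, 14 were tested. In APOE3, 3 rose after microbeads, where 3.54% of all genes tested were called higher, with a median log2 fold change over the list of 0.16. Cd44, the hyaluronan receptor, stood at 1.72, 8.79, 6.10 and 8.40 CPM in APOE3 sham and at 58.8, 32.3 and 19.6 in APOE3 microbead (2.47 ± 0.53, edgeR adjusted p = 0.00366). Like Lgals1, Cd44 passed the filter on low counts only through APOE3 microbead, in 3 libraries there and 0 of the other 11, so a difference was built into its being tested. Itgam, the CD11b integrin chain used in the gate, rose by 0.74 ± 0.22 (edgeR adjusted p = 0.0442) and the lysosomal membrane protein Lamp1 by 0.91 ± 0.27 (edgeR adjusted p = 0.047). In APOE4, Itgam alone was called (1.01 ± 0.22, edgeR adjusted p = 0.0466), where 0.171% of all genes were called higher, and the list median was 0.28. Trem2, the lipid-sensing receptor for which galectin-3 has been described as a ligand, was the list's most abundant transcript by TPM. It stood at 617 ± 93.5 CPM in APOE3 sham and 535 ± 111 in APOE3 microbead (-0.21 ± 0.18, edgeR adjusted p = 0.709). Without both APOE3 microbead 1 and 2 the APOE3 values were 1.59 ± 0.87 for Cd44, 0.75 ± 0.29 for Itgam and 0.665 ± 0.38 for Lamp1 (edgeR adjusted p 0.403 to 0.714), so the estimates of Cd44 and Lamp1 were smaller and that of Itgam was not. The part of other cells was not tested.

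Of 16 enzymes that build or cap the glycans galectins bind, 12 were tested and 1 was called in APOE3, as lower, a call made for 1.62% of all genes tested. In APOE4 edgeR called 0, with 0 at an unadjusted p under 0.05, and DESeq2 and limma-voom called 0. St3gal6, a sialyltransferase and the list's most abundant transcript by TPM, fell from 137 ± 27.4 to 56.2 ± 41.0 CPM in APOE3 (-1.30 ± 0.31, edgeR adjusted p = 0.0107), and was at 115 ± 13.01 and 85.3 ± 16.4 in APOE4 (-0.44 ± 0.30, edgeR adjusted p = 0.897). The list median was -0.13 in APOE3 and 0.12 in APOE4. The APOE3 value of St3gal6 was -0.41 ± 0.32 without both APOE3 microbead 1 and 2 (edgeR adjusted p = 0.821), so the estimate was nearer 0 than over all libraries. For the response to damaged lysosomes, in which galectin-3 and galectin-8 take part, edgeR called 0 of the 15 genes tested out of 18 in either genotype, where 5.15% of all genes tested were called in APOE3 and 0.197% in APOE4, so a count of 0 is near the background. DESeq2 and limma-voom called 0 as well, and 2 had an unadjusted edgeR p under 0.05 in each genotype. The list median was 0.12 in APOE3 and -0.005 in APOE4. Its most abundant transcript by TPM, the autophagy protein gene Gabarap, stood at 70.1 ± 13.6 CPM in APOE3 sham and 119 ± 6.83 in APOE3 microbead (0.75 ± 0.25, edgeR adjusted p = 0.0857), and at 86.4 ± 28.3 and 86.3 ± 24.9 in APOE4.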

How the data were processed

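Microglial RNA from 14 retinas in 4 groups was sequenced. Per the submitters' processing notes, Salmon 1.4.0, mm10, R 4.0.3 and DESeq2 1.30.1 were used. The authors deposited Salmon estimated counts per transcript with effective lengths, and a series table of TPM per gene. Recomputed TPM lay within 1% of a library's own column in 99.2% to 99.4% of genes, and of another library's column in no more than 2.64%. Among 116945 transcripts, 115945 had a gene in GENCODE M21, giving 35449 genes; the other 1000 held at most 0.497% of a library's reads. Expected counts were summed per gene and rounded. EdgeR 4.0.16 (R 4.3.3) filterByExpr (minimum count 10, minimum total 15) kept 7605 of 28158 genes with a read, all 5 chosen genes among them. The cutoff was 16.1 CPM in 3 libraries. The robust quasi-likelihood test, two-sided, used TMM scaling and 1 model of 4 group means. P-values are Benjamini-Hochberg adjusted over every gene tested, with calls made under 0.05. The common biological coefficient of variation was 0.275. The SE comes from the F statistic. Correlations use log2 CPM with a prior count of 2, over named tested genes.

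Members and gene lists were chosen with earlier results of these data known. Named genes are the 5 members, other galectin genes with a read, list members called in any comparison with each list's most abundant one, and the 8 genes most like Lgals3. The procedure was tested on simulated data with the same spread for every gene. Changes were placed there only in genes with more reads than Lgals1, so that test does not cover genes of so few reads. Alternatives were DESeq2 1.42.0, limma-voom (limma 3.58.1), other scalings and filters, length offsets, limma on log2(TPM + 1) or log2(TPM + 5), fewer libraries and a replicate block. Values without APOE3 microbead 1 and 2 for genes of the lists and for likeness, and likeness to genes other than Lgals3, were chosen after seeing the data. Mrc1 was named after its values were seen.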

Additional observations from a re-analysis of the deposited data

How the results depend on the processing

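The rise of Lgals3 in APOE3 kept its direction in all 27 alternatives (2.78 to 4.62) and its call in 25, the exceptions being limma on log2(TPM + 1) (3.75, limma adjusted p = 0.141) and the fit without both APOE3 microbead 1 and 2 (3.63, edgeR adjusted p = 0.29). Lgals3bp in APOE3 kept its call in 24 of 27 alternatives, Lgals9 in 14 of 27 and Lgals1 in 15 of 26, all in the same direction. Lgals3bp in APOE4 kept its direction in 27 (0.86 to 1.95) and its call in 9. Lgals3 was lower in APOE4 than APOE3 after microbeads in all 27 (-4.83 to -2.85), and passed in 6. Causes of lost calls were not tested. Where fits use fewer libraries or another filter, the genes tested differ too. With a minimum count of 20 Lgals1 was not tested, and with only the libraries compared Lgals3 and Lgals1 were tested in neither APOE4 against its sham nor the sham groups. An interaction with only the libraries compared would be the same fit and was not run. Depth limits Lgals1 and, outside APOE3 microbead, Lgals3: 3 reads stood for 3.34 to 6.79 CPM.

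Of the genes tested, the model called 392 in APOE3, 15 in APOE4, 7 for the interaction, 44 between the microbead groups and 1 between the sham groups. In APOE3 this was 149 with library totals as scaling, 222 with length offsets, 47 and 42 with limma on log2(TPM + 1) and log2(TPM + 5), 227 with only the libraries compared and 37 without both APOE3 microbead 1 and 2. In APOE4 it was 34 with DESeq2, 3 with library totals, 5 with length offsets, 53 with no filter, 3 and 2 with the TPM fits, 44 with only the libraries compared and 26 without both libraries. For the interaction it was 57 with DESeq2, 2 with library totals, 0 with length offsets, 29 with no filter, 1 with either TPM fit and 1 without both libraries. Between the microbead groups it was 73 with DESeq2, 14 with library totals, 24 with length offsets, 111 with no filter, 11 and 12 with the TPM fits and 2 without both libraries. Between the sham groups it was 0 with limma-voom, library totals, length offsets, a minimum count of 20, only the libraries compared and without both libraries, 12 with no filter, and 3 and 2 with the TPM fits. With library totals the median log2 fold change over all genes shifted by more than 0.1, to -0.232 in APOE4, -0.205 for the interaction and 0.162 between the sham groups, and values under that scaling carry this shift.

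Of the 5 genes, APOE3 had 2 called with library totals, with length offsets and with log2(TPM + 5), and 0 with log2(TPM + 1). APOE4 had 0 called with limma-voom, library totals, length offsets, either TPM fit, only the libraries compared and without both libraries. Between the microbead groups 1 was called: Lgals3 with DESeq2 (-3.91, adjusted p = 0.0141), limma-voom (-4.02, adjusted p = 0.00208), a minimum count of 20 (-3.91, edgeR adjusted p = 0.0406) and only the libraries compared (-3.89, edgeR adjusted p = 0.000437), and Lgals1 with no filter and with log2(TPM + 5). Between the sham groups 1 was called with no filter, Lgals3bp (edgeR adjusted p = 0.0261).

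Signs that turned all belonged to changes not called. In APOE4, limma-voom gave Lgals3 as 0.826 and Lgals1 as 0.227, library totals and length offsets gave Lgals8 as -0.20 and -0.147, and the fits on log2(TPM + 1) and log2(TPM + 5) gave Lgals8 as -0.414 and -0.275 and Lgals9 as -0.162 and -0.141. Between the microbead groups, Lgals9 was at 0.0141 with length offsets and 0.16 without both libraries. Between the sham groups, limma-voom gave Lgals3 as -0.823 and Lgals8 as 0.0575, and Lgals8 was at 0.143 with library totals, 0.0124 with length offsets, and 0.236 and 0.156 with the TPM fits.

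With each of the 14 libraries left out in turn, genes called ranged from 225 to 478 in APOE3, 2 to 17 in APOE4, 0 to 30 for the interaction, 11 to 121 between the microbead groups and 0 to 1 between the sham groups. The lowest and highest counts came without APOE3 microbead 2 and 3 in APOE3, without APOE4 sham 3 and APOE3 microbead 1 in APOE4, without APOE4 sham 1 and APOE3 microbead 3 for the interaction, and without APOE4 microbead 1 and APOE3 microbead 3 between the microbead groups. Of the 5 genes, 2 to 4 were called in APOE3, 0 to 1 in APOE4 and 0 to 1 between the microbead groups. In APOE4, Lgals3 ranged from -1.18 to 1.19, Lgals1 from -0.807 to 0.70 and Lgals8 from -0.0912 to 0.175. Between the microbead groups Lgals3 ranged from -4.83 to -3.56 and Lgals9 from -0.185 to 0.154. Between the sham groups Lgals3 ranged from -1.06 to 0.982 and Lgals8 from -0.254 to 0.292.

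In 19 pairs of libraries with the same replicate number in their titles, deviations from the group means correlated between -0.144 and 0.0985. None was over 0.1. With 3 or 4 libraries per group, these values cannot show whether same-numbered retinas share an animal, which was not tested. With the replicate block, 293 genes were called in APOE3, 5 in APOE4, 3 for the interaction, 33 between the microbead groups and 0 between the sham groups. Under the block 2 of the 5 genes were called in APOE3 and 0 in APOE4, Lgals3 in APOE4 was at 0.107 and Lgals8 between the sham groups at 0.00137.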
